A study of Mus musculus with 74 samples.

Results

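The centromere-proximal ends described here are the first 10 Mb of assembled sequence of 14 mouse autosomes, as seen in single slices through nuclei of embryonic stem cells. They were chosen by position alone, as the 40 kb windows of the mm9 assembly that start from 3 Mb and before 13 Mb on chromosomes 1 to 11, 13, 14 and 17, with 250 windows per chromosome. This gave 3500 windows out of 68162 in the whole table. The data are genome architecture mapping (GAM) libraries. In GAM, frozen cells are cut into thin cryosections, the part of a nucleus that falls in a section (a nuclear profile) is cut out by laser, and its DNA is amplified and sequenced. The table had 74 libraries of 1 nuclear profile each (1NP libraries), which form a single group with no control. All came from 46C cells, an embryonic stem cell line of strain 129/Ola with a fluorescent reporter at Sox1, grown with LIF and serum and then for 24 h in serum-free medium. Each window was scored as positive (its DNA was found in the profile) or negative. Library names start with the prefix f13 (n = 34) or f14 (n = 40), whose meaning is not given, and values are also shown within each prefix in case it marks a technical batch. No label says which profiles came from separate cultures, so every p-value below measures the spread between profiles.

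Mouse chromosomes are acrocentric, so that the centromere lies at the very start of each chromosome. Beside it lies pericentromeric heterochromatin made of major satellite, a tandem repeat that is largely missing from assemblies, and the satellite blocks of several chromosomes gather in interphase nuclei into bodies called chromocenters. Chromosomes 12, 15, 16, 18 and 19, which are listed as carriers of ribosomal DNA arrays near the centromere, were not among the 14; their carrier status in 46C cells was not examined. The first 3 Mb of each of the 14 chromosomes was unknown sequence in the reference, and these 1050 windows had 0 positive calls, so that the centromere and most of its satellite were not measured.

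A few windows at the very start of the assembled sequence stood far apart from all others, and their sequence helps to read the values below. Each of the 5 stretches is the forward strand of NCBIM37, the sequence of mm9. Capitals mark bases within a word of 31 bases that is found more than once, on either strand, in the first 10 Mb of assembled sequence of the same chromosome. The first 3 stretches come from the 3 windows positive in the most libraries, the fourth from a window positive in the median number of libraries and the fifth, chosen after its value was seen, from the longest run of windows positive in no library.
window positive in 53 libraries, exon of Sfi1, chr11:3060001-3060300: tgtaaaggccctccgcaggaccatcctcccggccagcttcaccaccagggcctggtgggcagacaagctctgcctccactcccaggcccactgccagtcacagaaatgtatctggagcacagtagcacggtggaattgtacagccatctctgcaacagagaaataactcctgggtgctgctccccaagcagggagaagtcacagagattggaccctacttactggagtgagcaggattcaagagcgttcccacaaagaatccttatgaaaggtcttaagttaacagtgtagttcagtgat
window positive in 49 libraries, intron of Drg1, chr11:3100001-3100300: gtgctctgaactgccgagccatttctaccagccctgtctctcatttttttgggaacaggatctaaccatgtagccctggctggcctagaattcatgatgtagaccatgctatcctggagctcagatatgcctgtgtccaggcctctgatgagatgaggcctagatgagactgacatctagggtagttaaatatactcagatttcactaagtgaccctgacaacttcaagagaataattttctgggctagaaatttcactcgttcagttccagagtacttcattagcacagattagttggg
window positive in 48 libraries, exon of Gm11167 and intron of Gm16869, chr9:3020001-3020234: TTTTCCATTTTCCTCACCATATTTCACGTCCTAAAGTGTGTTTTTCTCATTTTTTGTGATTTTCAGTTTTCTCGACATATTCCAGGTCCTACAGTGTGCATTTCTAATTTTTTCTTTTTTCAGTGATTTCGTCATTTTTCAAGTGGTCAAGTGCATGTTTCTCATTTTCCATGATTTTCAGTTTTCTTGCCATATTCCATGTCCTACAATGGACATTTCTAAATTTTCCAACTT
window positive in 5 libraries, intron of Cwf19l2, chr9:3420001-3420300: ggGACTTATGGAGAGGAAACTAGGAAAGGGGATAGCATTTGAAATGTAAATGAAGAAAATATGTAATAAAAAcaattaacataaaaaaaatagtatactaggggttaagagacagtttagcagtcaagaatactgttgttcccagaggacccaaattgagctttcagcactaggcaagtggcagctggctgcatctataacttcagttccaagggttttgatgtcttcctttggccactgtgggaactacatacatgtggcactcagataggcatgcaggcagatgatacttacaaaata
window positive in 0 libraries, intron of the pseudogene Gm3962, chr7:8060001-8060300: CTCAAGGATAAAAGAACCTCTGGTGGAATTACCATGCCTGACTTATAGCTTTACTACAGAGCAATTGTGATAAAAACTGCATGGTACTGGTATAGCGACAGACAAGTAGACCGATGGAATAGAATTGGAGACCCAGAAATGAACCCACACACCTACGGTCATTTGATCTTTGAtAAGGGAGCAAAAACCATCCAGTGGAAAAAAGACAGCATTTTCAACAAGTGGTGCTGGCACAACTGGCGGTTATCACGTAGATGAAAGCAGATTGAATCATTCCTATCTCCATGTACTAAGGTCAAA
The chromosome 9 stretch is 1 unit of a tandem array. Within its window, 69.4% of bases were equal to the base 234 positions further on, and the repeat unit of major satellite is known to have this length. All 234 of its bases were in repeated words, against 0 of 300 in both chromosome 11 stretches, 70 of 300 in the window of median detection and 299 of 300 in the window that was never detected.

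The 14 ends were detected somewhat more often than the rest of the same chromosomes. This margin was not stable against the choice of libraries or windows. Coverage, the percentage of windows scored positive in a library, was 6.65% ± 5.01 (SD, n = 74) over the ends, with a median of 6.41%. It was 5.78% ± 2.90 over the 45384 windows from 13 Mb onwards. The lowest libraries had no positive window in the ends (2 libraries, f13f3 among them) and the highest, f14d4, had 24.2%, followed by f14a6 with 17.1% and f14b3 with 16.9%. The libraries overlapped widely, and 39 had a higher coverage in the ends than in the rest while 35 had a lower one. The mean difference was 0.868 percentage points, a ratio of 1.15 (p = 0.0491, two-sided sign-flip permutation test over libraries), but its median was 0.166 percentage points. Without windows positive in over 15 libraries the difference was 0.811 percentage points (p = 0.0653, permutation test). Without windows with unknown bases it was 0.866 (p = 0.0520, permutation test). The call was kept with isolated calls set to negative and with ends of 5 or 20 Mb. Leaving out any of 35 of the 74 libraries moved p above 0.05. Without f14d4 the difference was 0.666 percentage points (p = 0.0925), and over all libraries left out in turn p ran from 0.0254 to 0.0925. Within f13 the difference was 0.828 percentage points (p = 0.182, permutation test) and within f14 it was 0.903 (p = 0.157, permutation test), with ratios of 1.14 and 1.16. Coverage of the ends was 6.90% ± 4.24 in f13 and 6.43% ± 5.62 in f14, a difference smaller than the spread between libraries (p = 0.695, label permutation test). The medians lay farther apart, at 7.56% and 4.74%, a difference of 2.81 percentage points that did not pass the threshold either (p = 0.135, label permutation test). Without libraries under 1% genome coverage the means differed by 0.808 (p = 0.499, permutation test).

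Per window, the ends were positive in 4.92 ± 2.91 libraries (SD over windows, n = 3500) with a median of 5, and the rest in 4.28. A count of 0 in 74 libraries allows detection in up to 4.05% of such libraries. It sets no limit on how often the DNA was in a profile, since a window whose reads cannot be placed would stay negative. There were 197 such windows in the ends (5.63%), compared with 3.22% in the rest of the same chromosomes. Chromosomes 7 and 14 made this excess, with 156 of 500 windows in their ends (31.2%) against 7.61% in their rest. In the ends of the other 12 chromosomes 41 of 3000 windows were never detected (1.37%), fewer than the 2.51% of their rest. This split was made after the values were seen and was not tested.

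The opposite, telomeric ends of the same 14 chromosomes had a coverage of 5.47% ± 3.99 over their last 10 Mb (SD, n = 74). The centromere-proximal ends were 1.18 percentage points higher, in 43 libraries up and 30 down, which did not pass the threshold (p = 0.0873, sign-flip permutation test). This call turned on single libraries, since p fell to 0.0367 without f13a5, and leaving out f13f2 also brought it under 0.05. The difference was 0.474 percentage points in f13 and 1.78 in f14. The first 10 Mb of chromosomes 12, 15, 16, 18 and 19 had 7.08% ± 7.40, with a highest library of 41.9% (f14b3). The difference, ends minus these, was -0.437 percentage points, higher in 38 libraries and lower in 34, and did not pass the threshold (p = 0.568, sign-flip permutation test). Its size and sign were not stable: it was -0.101 without f14b3, -0.701 without f14d4, 0.242 in f13 and 0.279 with ends of 20 Mb.

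Single ends varied far more between libraries than the 14 together. On chromosome 11, the most detected end, coverage had a lowest value of 0, a median of 3.4% and a highest value of 44.8% (f13b3), and its mean was 9.38% ± 12.3 (SD, n = 74). Windows at its start that were positive in over 15 libraries, described below, count in this mean. No mean of this end without them is given here. On chromosome 1 the median was 0.6% and the highest library, f14d4, had 72.4%, with a mean of 8.57% ± 15.5. The chromosome 3 end had a median of 0.8%, a highest value of 47.2% (f14e6) and a mean of 8.41% ± 12.6. In each of these ends a minority of slices had many positive windows while most had few. At the other extreme, chromosome 14 had a median of 0.4%, a highest value of 32.8% (f14b3) and a mean of 2.98% ± 5.81. The chromosome 8 end had a mean of 4.76% ± 9.24 and a highest value of 42.8% (f13b3). The chromosome 7 end had a mean of 4.97% ± 8.69 and a highest value of 43.6% (f14d4). The other 8 ends had means from 5.56% (chromosome 5) to 7.80% (chromosome 17). Chromosomes 1, 3, 4, 11 and 17 had ends at 1.26, 1.44, 1.46, 1.53 and 1.45 times the coverage of the rest of their own chromosome. The end of chromosome 14 was at 0.584 times, and the other 8 lay between 0.929 and 1.18 times.

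**Figure D1:**
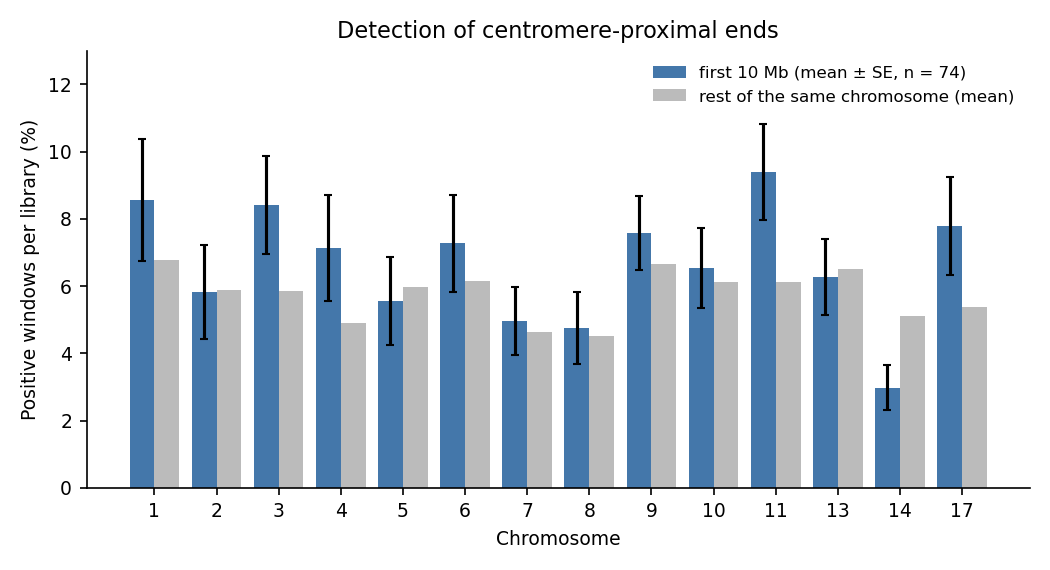
Coverage of the first 10 Mb of assembled sequence of each of the 14 chromosomes (blue bars, mean of 74 libraries with its standard error) beside the mean coverage of the rest of the same chromosome (grey bars), in percent of 40 kb windows. The end of chromosome 14 lies lowest at 2.98% and that of chromosome 11 highest at 9.38%.

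Each end was set against the rest of its own chromosome within a test of all 259 blocks of 10 Mb on chromosomes 1 to 19 and X. With Benjamini-Hochberg adjustment over all blocks, 0 of the 14 ends passed the threshold, where 0.386% of all blocks did (1 block, on chromosome X). At an unadjusted p under 0.05, 2 ends were higher, against 3.09% of all blocks. These were chromosome 11 (p = 0.00631, adjusted p = 0.327, sign-flip permutation test, 40 libraries up and 31 down) and chromosome 3 (p = 0.0414, adjusted p = 0.475, 30 up and 39 down). The value of the chromosome 11 end includes the frequently detected windows at its start. In the lower direction 1 end was found, against 6.18% of all blocks. It was chromosome 14 (p = 0.00592, adjusted p = 0.327, 14 up and 52 down). The prefixes differed for single ends without a common direction: the chromosome 1 end had 5.18% in f13 and 11.5% in f14, and the chromosome 13 end had 9.47% and 3.56%.

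Over the full 10 Mb of the ends, no fall of detection with distance passed the test, but the slope depended on the length, windows, calls and libraries taken. In 1 Mb bins pooled over the 14 ends, coverage was 7.40% ± 0.706 (SE, n = 74) in the first bin and 7.11% ± 0.721 in the second. The 8 bins after these lay between 6.06% and 6.77%. The slope over the 10 bins was -0.0362 percentage points per Mb, positive in 36 libraries and negative in 36 (p = 0.515, sign-flip permutation test). Over the first 5 Mb alone it was -0.274 (p = 0.0832, permutation test), and over 10 Mb without windows positive in over 15 libraries it was -0.00469 (p = 0.932, permutation test). It was -0.00798 with isolated positive calls set to negative, -0.0154 in f13 and -0.0539 in f14. The first bin owed part of its height to 4 windows on chromosomes 9 and 11. With windows positive in over 15 libraries left out, its coverage was 6.80%, below that of the second bin. Single ends differed in this bin, from 0.486% on chromosome 14 to 13.8% on chromosome 11.

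**Figure D2:**
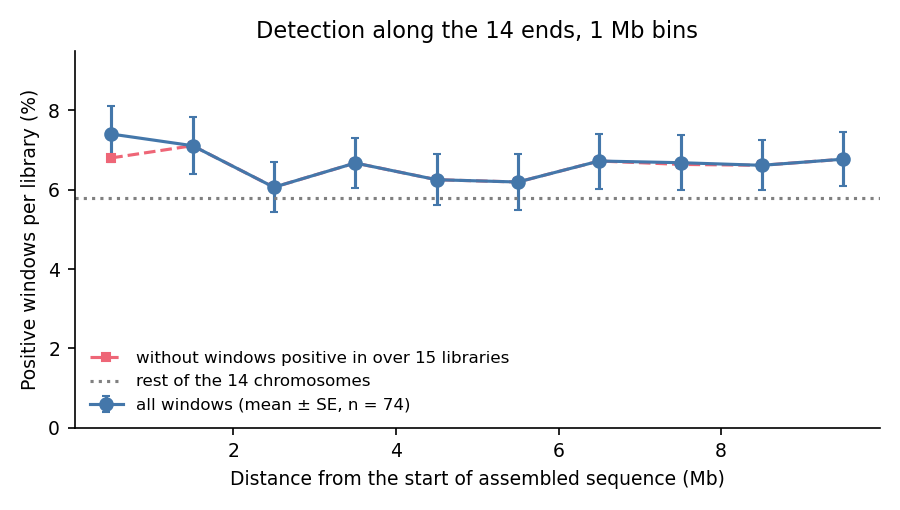
Coverage (percent of windows positive per library, mean with standard error over 74 libraries) in 1 Mb bins against distance from the start of assembled sequence, pooled over the 14 ends, with the same values after removal of windows positive in over 15 libraries (dashed) and the mean of the rest of the chromosomes (dotted, 5.78%). The bins after the second lie between 6.06% and 6.77%.

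Over longer distances the ends were the start of a shallow gradient, examined after the data had been seen. In successive 10 Mb blocks from the centromere, coverage over the 14 chromosomes was 6.65%, 6.48%, 6.50% and 6.16%, and from the fifth to the ninth block it was 5.56%, 5.41%, 5.85%, 5.86% and 5.68%. The slope was -0.129 percentage points per 10 Mb, negative in 44 libraries and positive in 30 (p = 0.0444, sign-flip permutation test). It was -0.147 in f13 (p = 0.0920, permutation test) and -0.114 in f14 (p = 0.242, permutation test). Leaving out any of 26 libraries moved p above 0.05. Without f14d4 the slope was -0.0967 (p = 0.0857, permutation test), the shallowest of the values with 1 library left out.

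Among single windows, the 4 positive in the most libraries were all in the first 120 kb of chromosome 11 or the first 40 kb of chromosome 9. On chromosome 11 the window at chr11:3040001-3080000 was positive in 53 libraries, 71.6% of the 74 (95% Wilson interval 60.5 to 80.6%, counting error only). It holds exons of Sfi1, whose protein is a component of centrosomes, of the transcript Gm11399 and of the pseudogene Gm11400. The next window, chr11:3080001-3120000, was positive in 49 libraries (66.2%, interval 54.9 to 76.0%). It holds exons of Sfi1, of Drg1, which encodes a GTP-binding protein, and of Eif4enif1, which encodes a transporter of the cap-binding factor eIF4E. The first window of the chromosome, chr11:3000001-3040000, was positive in 26 libraries (35.1%, interval 25.2 to 46.5%) and holds exons of Sfi1 and of the pseudogene Pisd-ps1. Detection dropped at once beyond them, to 7 libraries in the window after the third.

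The chromosome 9 window is the one with the 234-base array, chr9:3000001-3040000. It was positive in 48 libraries (64.9%, interval 53.5 to 74.8%), and its neighbour in 10. In this window 91.3% of words of 31 bases recurred within the end, compared with 5.42%, 5.68% and 17.1% in the 3 windows of chromosome 11 in order of detection. Detection in so many libraries therefore occurred both in an array and in windows that are mostly single copy within their own end. Copies elsewhere in the genome were not counted. By prefix, these 4 windows were positive in 25, 25, 25 and 14 of 34 f13 libraries and in 28, 24, 23 and 12 of 40 f14 libraries.

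These 4 windows were also positive in libraries with no call in any ordinary window (positive in at most 15 libraries) of the same end. Most libraries with such a window did have calls in ordinary windows. The frequent windows of chromosome 11 are not ordinary, so a library without ordinary calls could still hold several of them. Of the 53 libraries with the most detected window, 19 had no call in any ordinary window of the chromosome 11 end. The same held for 16 of 49 and 7 of 26 libraries for the other windows of chromosome 11, and for 16 of 48 for the chromosome 9 window. Over all 74 libraries, 31 had no call in an ordinary window of the chromosome 11 end and 27 had none in that of the chromosome 9 end. They were also positive together: the most detected window of chromosome 11 and that of chromosome 9 were both positive in 43 libraries, where independent calls would give 34.4. Both top windows of chromosome 11 were positive together in 44, against 35.1. These joint counts are descriptions, since libraries differ in coverage.

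The fifth window by detection, chr17:10120001-10160000, was positive in 16 libraries (21.6%, interval 13.8 to 32.3%) and holds no annotated gene. The most detected windows of chromosomes 13 and 14 were positive in 15 libraries each. Those were chr13:4520001-4560000, with an exon of the aldo-keto reductase gene Akr1c20, and chr14:7760001-7800000, with an exon of Gm6356. In the other 9 ends the most detected window was positive in 10 to 13 libraries. Among them were windows with exons of Itga8, an integrin subunit (chr2:12200001-12240000, 10 libraries), Grm3, a glutamate receptor (chr5:9560001-9600000, 11 libraries), Lair1, an inhibitory receptor of leukocytes (chr7:4000001-4040000, 12 libraries), and Myo16, a myosin (chr8:10600001-10640000, 10 libraries). Apart from the first 4, the upper windows thus formed a continuous range.

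Windows filled mostly by a tandem array were rare in the ends. The search compared whole windows at a limited range of spacings without gaps, so shorter or gapped arrays could be missed. An exact spacing shared by over 50% of bases was found in 4 of the 3500 windows. Besides the chromosome 9 window, these were its neighbour, with a period of 31 bases and 10 positive libraries, and the first windows of chromosomes 3 and 17, with a period of 21 bases and 2 positive libraries each. Of these 4 windows, 1 was positive in over 15 libraries. Under the 50% cut, chr3:6280001-6320000 had a share of 44.6% at a period of 208 bases and was positive in 4 libraries.

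The windows that were never detected lay in a few long runs. The 197 windows formed 47 runs, of which 25 were single windows and 11 had at least 5, and 156 of them (79.2%) were on chromosomes 7 (65 windows) and 14 (91 windows). The longest run, chr7:7560001-8800000, had 31 windows. It holds the vomeronasal receptor genes Vmn2r34, Vmn2r35 and Vmn2r36, which belong to a family of pheromone receptors. Next came 2 runs of 20 windows on chromosome 14, chr14:3240001-4040000 and chr14:6320001-7120000, with 15 and 16 protein-coding genes, nearly all of them predicted genes with Gm names. Unknown bases made up 16.1%, 6.26% and 16.7% of these 3 runs.

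Most of the never-detected windows held sequence repeated within their own chromosome end. In the 3 longest runs 98.8%, 98.9% and 99.3% of words of 31 bases recurred in the same end. Of the 1872 windows with under 10% of repeated words, 9 were never detected (0.481%) and coverage was 7.20% ± 5.34 (SD over libraries, n = 74). With 10 to 50% of repeated words (1309 windows), 10 were never detected and coverage was 6.95% ± 5.55. With 50% or more (314 windows), 173 were never detected (55.1%) and coverage was 2.16% ± 3.02. Another 5 windows had too few known bases for a value, and all were negative in every library. On chromosome 14, which had the lowest end, 137 of 250 windows had 50% or more of repeated words and a coverage of 1.70%, and its 89 windows with under 10% had 4.83% ± 9.92. On chromosome 7 the 114 windows with 50% or more had 1.88%, and the 64 with under 10% had 8.23% ± 14.2. How reads that match several places were treated in the calls is not given in the sources used here, and the part of this in the low detection was not tested.

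Gene families of the ends differed in how much repeated sequence their windows held. Genes of the Vmn2r family (25 genes on chromosome 7) touched 39 windows with 81.9% of repeated words on average; these had a coverage of 2.67% ± 6.62 (SD, n = 74), and 17 were never detected. Genes of the Vmn1r family, a second class of vomeronasal receptors (33 genes, 31 of them on chromosome 7), touched 30 windows with 24.5% of repeated words and a coverage of 6.13% ± 12.8, and 0 were never detected. The 20 zinc-finger genes with Zfp names, 16 of them on chromosome 7, touched 25 windows with a coverage of 7.62% ± 11.6. The 8 olfactory receptor genes (Olfr), all on chromosome 7, touched 4 windows with 5.74% ± 16.3. The only gene found by a Speer name, Speer1-ps1 on chromosome 5, lay in 1 window with 0 positive libraries. Its symbol is that of a pseudogene, though the annotation lists it as protein-coding. No comparison between families was tested, as most of these windows share 1 chromosome end and therefore the same slices.

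Windows that were close together in an end were often positive in the same library, and this co-segregation fell with distance. Adjacent windows (0.04 Mb) were both positive in 3.64% of libraries (SD 3.41 over libraries, n = 74), windows 1 Mb apart in 2.13% and windows 8 Mb apart in 1.36%. In the rest of the same chromosomes the values were 3.03%, 1.61% and 0.869%, and in the telomeric ends 2.88%, 1.54% and 0.961%. From 0.04 to 8 Mb the curve of the ends stayed above both. The first 10 Mb of chromosomes 12, 15, 16, 18 and 19 had 3.98%, 2.18% and 1.43% at the same distances, above the 14 ends at each.

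**Figure D3:**
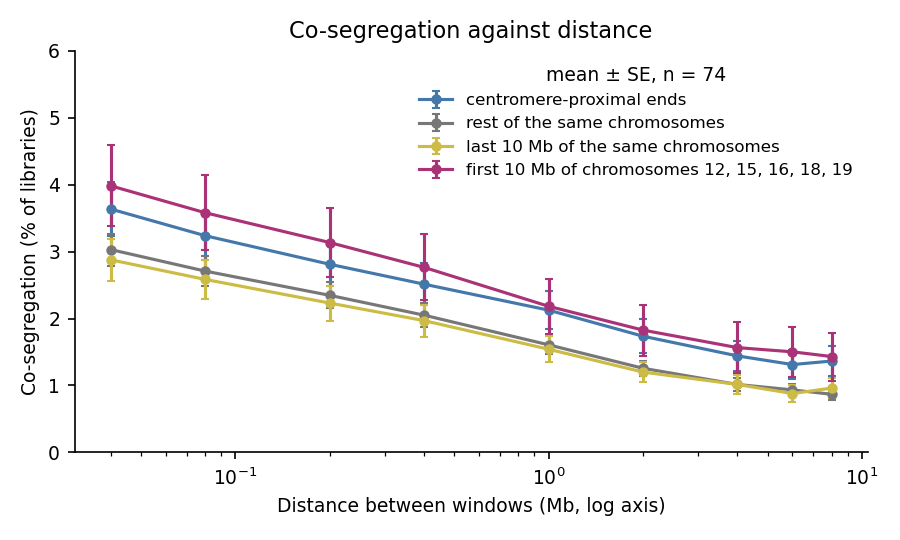
Percentage of libraries with both windows positive (mean with standard error over 74 libraries) against the distance between windows in Mb on a log axis, for the centromere-proximal ends (blue), the rest of the same chromosomes (grey), the last 10 Mb of the same chromosomes (yellow) and the first 10 Mb of chromosomes 12, 15, 16, 18 and 19 (purple). The ends fall from 3.64% to 1.36% and lie above the rest, at 3.03% to 0.869%, and below the purple curve at each distance.

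At each of 5 distances tested the ends were higher than the rest. The difference was 0.606 percentage points at 0.04 Mb (adjusted p = 0.0379, two-sided permutation by sign flips, Benjamini-Hochberg adjusted over the 5 distances) and 0.464 at 0.2 Mb (adjusted p = 0.0463, permutation test). At 1, 4 and 8 Mb it was 0.518, 0.427 and 0.496 percentage points, each with an adjusted p of 0.0153 in the same permutation test. The libraries were split in direction: 37, 38, 41, 35 and 36 libraries were higher and 36, 33, 30, 36 and 35 lower at the 5 distances. At 1, 4 and 8 Mb the call held whichever library was left out, with an adjusted p of at most 0.0305. With ends of 5 Mb, however, the calls at 1 and 4 Mb were lost (adjusted p = 0.0815 at both, permutation test), as were those at 0.04 and 0.2 Mb. At 0.04 Mb it was lost when any of 13 libraries was left out and at 0.2 Mb any of 26, with 0.459 and 0.332 percentage points without f14d4. Within f13 no distance passed (differences from 0.162 at 8 Mb to 0.412 at 0.04 Mb, adjusted p from 0.434 to 0.436, permutation test). Within f14 the differences at 1, 4 and 8 Mb did. Whether the prefixes differed was not tested.

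These differences depended on how the higher coverage of the ends was treated. After scaling co-segregation in the ends to the coverage of the rest, the difference was -0.282 percentage points at 0.04 Mb, -0.222 at 0.2 Mb and -0.000643 at 1 Mb, and 0.0744 and 0.163 at 4 and 8 Mb. None of these passed the threshold (adjusted p from 0.405 to 0.997, sign-flip permutation test). The scaling divides by the square of the coverage ratio, as for independent windows. Seen per detected window, the chance that a second window was also positive fell less steeply in the ends than in the rest. It was 54.7% at 0.04 Mb and 20.5% at 8 Mb in the ends, and 52.4% and 15% in the rest. This difference in steepness was not tested. The first 10 Mb of chromosomes 12, 15, 16, 18 and 19 had similar shares to the ends, 56.2% and 20.2%, and the difference was not tested. The gap was 2.26 ± 1.06 percentage points (jackknife SE over 74 libraries) for adjacent windows and 1.68 ± 1.16 at 0.2 Mb, and it was 4.17 ± 1.38, 4.12 ± 1.45 and 5.50 ± 2.00 at 1, 4 and 8 Mb. The gap did not keep its direction within f13, where it was -0.637 at 0.04 Mb and -0.514 at 0.2 Mb, against 4.96 and 3.68 in f14. At 1, 4 and 8 Mb it was 2.15, 1.53 and 0.682 in f13 and 5.98, 6.45 and 9.87 in f14. Without f14d4 it was 4.38 at 8 Mb.

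In the test used, ends of different chromosomes did not pass the threshold for sharing slices more than other parts of the same chromosomes. For each of the 91 pairs of ends, normalized co-segregation was the mean over libraries of the product of both coverages, divided by the product of their means. A value of 1 stands for independent ends. The unequal coverage of libraries, taken over all autosomes, gave 1.26. This is no lower limit, since pairs of blocks from 13 Mb onwards lay under it at 1.18. The mean over the 91 pairs was 1.42 ± 0.112 (jackknife SE over 74 libraries), against 1.18 ± 0.0458 for blocks from 13 Mb onwards on the same chromosomes and 1.32 ± 0.0905 for the telomeric ends. The difference from the interior was 0.240 (p = 0.340, sign-flip permutation test, 31 libraries up and 43 down) and that from the telomeric ends 0.0940 (p = 0.792, permutation test, 34 up and 39 down). This test takes the mean coverages as fixed, while the jackknife computes them anew without each library. The test and the jackknife thus measure error in unlike ways, and no jackknife error of the difference was computed. The difference from the interior was 0.0991 in f13 and 0.326 in f14, and that from the telomeric ends was -0.127 in f13 and 0.366 in f14. The latter was 0.0421 without f14d4 and 0.131 without f13a3. The 10 pairs among the ends of chromosomes 12, 15, 16, 18 and 19 had 1.68 ± 0.309. A single library, f14d4, gave 13.6% of the sum over libraries for the 14 ends, and 5 libraries gave 36%.

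Normalized co-segregation was highest at the ends and lower in blocks farther in. For pairs of 10 Mb blocks at the same distance from the centromere it was 1.42, 1.33, 1.23, 1.25, 1.21, 1.19, 1.19, 1.15 and 1.16 from the first to the ninth block. The slope, examined after the data had been seen, was -0.0287 per 10 Mb and did not pass the threshold (p = 0.462, sign-flip permutation test). Here too the test takes the mean coverages as fixed. The slope was positive in 40 libraries and negative in 34, and without f14d4 it was -0.0171. Within f13 it was -0.00779 (p = 0.829, permutation test) and within f14 it was -0.0390 (p = 0.550, permutation test). Within the ends, bins of 1 Mb at equal distance had values between 1.37 and 1.54.

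**Figure D4:**
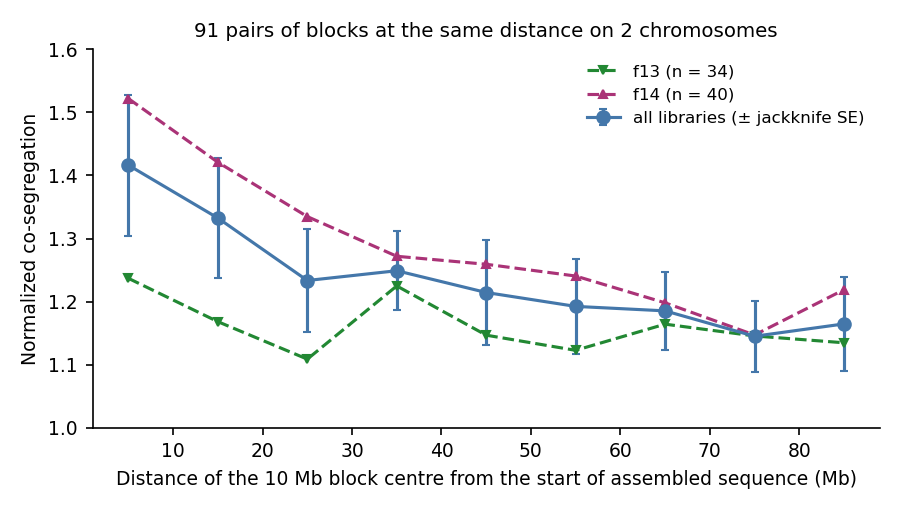
Normalized co-segregation (no unit, 1 for independent blocks) of 91 pairs of 10 Mb blocks on different chromosomes at the same distance from the start of assembled sequence, against that distance in Mb, for all 74 libraries with jackknife standard errors and for both name prefixes. The vertical axis starts at 1; the value goes from 1.42 in the first block to 1.16 in the ninth, and f14 lies above f13 in the first block at 1.52 against 1.24.

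No single pair of ends stood out from what library coverage gave. Observed over expected co-segregation compared each pair with shuffles of the coverages of 1 end among libraries within 5 strata of autosomal coverage. Over the 91 pairs its median was 1.08 (0.963 over all 31764 pairs of 10 Mb blocks on different chromosomes), with a range from 0.534 to 2.32, and 50 pairs were above 1. After Benjamini-Hochberg adjustment over all block pairs 0 end pairs passed, as did 0% of all pairs. The smallest adjusted p of an end pair was 0.677. The smallest adjusted p that a pair alone could reach with this number of shuffles and pairs was 0.635, so this adjustment could call a pair only together with others. Adjusted over the 190 pairs of first blocks of chromosomes 1 to 19 and X alone, a family chosen after the data had been seen, 0 pairs passed and the smallest adjusted p was 0.527. At an unadjusted p under 0.05, 6 of the 91 end pairs were higher, against 2.80% of all block pairs, and 1 was lower, against 3.61%.

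The highest 3 and the lowest 3 pairs show how few slices lie behind such values. For counts, an end was taken as present in a library when at least 25 of its 250 windows (10%) were positive. The ends of chromosomes 5 and 14 had the highest value, 2.32 (unadjusted p = 0.0220, permutation test). They were present in 15 and 4 libraries and shared 2, f14b3 and f14d4, where 0.811 were expected from the counts. Their value was 1.68 without f14d4, 1.10 within f13 and 2.39 within f14. The pair of chromosomes 5 and 6 had 1.94 (p = 0.0204, permutation test) and shared 7 libraries of 15 and 19, against 3.85 expected. That pair had 1.66 in f13, 1.85 in f14 and 1.65 without f14d4. Chromosomes 6 and 14 also had 1.94 (p = 0.0183, permutation test), with 2 shared libraries, which were again f14b3 and f14d4. The telomeric ends of these 3 pairs had 0.931, 0.680 and 1.13.

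At the low side, the ends of chromosomes 6 and 10 had 0.534 (unadjusted p = 0.0195, permutation test). They shared 2 libraries, f13b4 and f13d4, of 19 and 20, against 5.14 expected, with 0.939 in f13 and 0.164 in f14. Chromosomes 5 and 10 had 0.574 (p = 0.143, permutation test) and chromosomes 8 and 13 had 0.597 (p = 0.115, permutation test), with 2 shared libraries each. The telomeric ends of these 3 pairs had 0.809, 0.710 and 0.900. By count, the largest overlap was 11 libraries, reached by chromosomes 4 and 10 and by chromosomes 9 and 11. The former, named after its value was seen, had the smallest unadjusted p of the 91 pairs (0.0152, permutation test), an observed over expected value of 1.66 and 4.05 libraries expected, with 1.5 in f13 and 1.42 in f14.

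**Figure D5:**
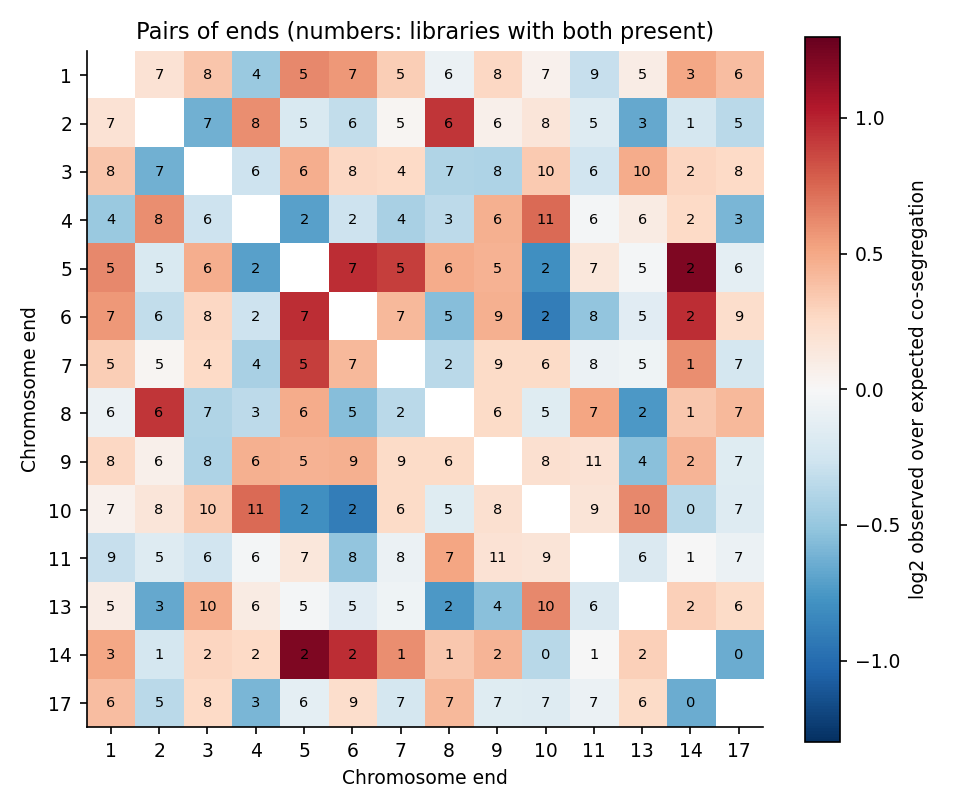
Observed over expected co-segregation of the 91 pairs of centromere-proximal ends on a log2 colour scale (red above and blue below the expectation within 5 strata of library coverage), with rows and columns for the 14 chromosomes and the number of libraries in which both ends were present written in each cell. Values run from 0.534 for chromosomes 6 and 10 to 2.32 for chromosomes 5 and 14, and none passed the adjusted threshold.

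Presence of single ends ranged from 4 libraries (chromosome 14) to 25 (chromosome 9), with 23 each for chromosomes 3 and 11. These counts depended on the cut of 10%. With a cut of 5% they ran from 15 (chromosome 8) to 33 (chromosome 11), with 16 for chromosome 14. With a cut of 20% they ran from 2 (chromosome 14) to 16 (chromosome 11). Shared libraries of pairs were counted at 10% only. At least 1 positive window was found in 31 libraries for the chromosome 5 end and in 64 for the chromosome 11 end, where the frequent windows above count too. The 13 pairs of the chromosome 1 end and those of the chromosome 9 end were above 1 in 10 cases each, and those of the chromosome 11 end in 4. Since each end enters 13 pairs, the pairs are not independent of each other.

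A slice held 3.34 ± 2.42 of the 14 ends (SD, n = 74), with a median of 4. In 12 libraries no end was present, in 25 at least 5 were, and the most was 9 (f13d4 and f14a6). The 12 include all 5 libraries under 1% genome coverage, which also count in the values below over all libraries. In f13d4 these were the ends of chromosomes 1, 2, 3, 6, 8, 9, 10, 11 and 17, with coverages from 11.2% to 30.8%. In f14a6 they were those of chromosomes 1, 2, 4, 7, 8, 9, 10, 11 and 17, from 12.8% to 40.4%. The same libraries had 5 and 4 of the 14 telomeric ends. Over all libraries, telomeric ends numbered 2.95 ± 2.11 per slice and blocks from 33 to 43 Mb 3.14 ± 2.12. The variance of the number of ends was 1.76 times its mean, compared with 1.51 for telomeric ends and 1.43 for the blocks from 33 to 43 Mb. Within f13 the ratios were 1.37, 1.58 and 1.38 and within f14 they were 2.13, 1.35 and 1.49, so that the order of ends and telomeric ends differed between the prefixes. No test was made on these ratios.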

How the data were processed

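Single nuclear profiles of 46C cells were sequenced as 74 1NP GAM libraries. The authors deposited a table of 0 or 1 calls per 40 kb window and library, which are neither counts nor normalized values. All values were 0 or 1. The submitters' processing notes name Bowtie2 2.1 and mm9. The study's methods describe alignment, duplicate removal and a fixed read threshold per window for its multiplex libraries; whether these settings made the 1NP calls is not given in the sources used here. The table holds no reads, so depth per library is unknown, and a shallow library would appear to hold less of the genome. Genome coverage ran from 0.0205% to 12.4% (mean 5.27% ± 2.68), with 5 libraries under 1%, all kept. Among the other 69, no pair shared over 16.0% of the windows positive in either library, so all counted as replicates.

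Members were chosen by position, but the members, gene lists and tests were chosen with earlier results of these data known. Reference sequence was NCBIM37, whose chromosome lengths equalled the table's, and genes were from GENCODE on that assembly. Coverage, co-segregation (both windows positive) and normalized co-segregation were computed per library. Tests were two-sided sign-flip or label permutations over libraries (100000 resamples, smallest p 1e-05; 2e-05 for block pairs), with Benjamini-Hochberg adjustment and a threshold of 0.05. Blocks had at least 125 windows. The block and pair tests were also run on simulated tables with a planted end and a planted pair. The planted end had extra scattered calls in every library. The planted pair was a copy of 1 end onto another, adjusted over pairs of first blocks only. These settings differ from the data, so they do not show how weak a difference the tests would find. Named items were the 5 most detected windows, the most detected window of each end, the 3 longest never-detected runs, the highest 3 and lowest 3 ends and pairs, and genes in those windows or in the listed families. Alternatives were libraries under 1%, windows positive in over 15 libraries or windows with unknown bases left out, isolated calls set to negative, ends of 5 or 20 Mb, each prefix alone, 3 or 10 strata, medians and scaling to coverage. Python 3.11.15, NumPy 2.4.6, pandas 2.3.3, SciPy 1.17.1 and Matplotlib 3.10.9 were used.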

Additional observations from a re-analysis of the deposited data

How the results depend on the processing

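No paired analysis was possible because the libraries form 1 group, so no replicate number pairs libraries across groups; the sign-flip tests compare regions within each library. Of 122 alternative values for 16 results, 91 kept their direction and their side of the threshold (counts of calls stayed within 1.5 times), 25 lost the threshold or fell below that range and 6 changed sign. For all of these the cause was not tested beyond what the setting itself removes. The difference between ends and rest was 0.923 percentage points without libraries under 1% (p = 0.0504, permutation test), 0.811 without windows positive in over 15 libraries (p = 0.0653), 0.866 without windows with unknown bases (p = 0.0520), and 0.828 in f13 and 0.903 in f14, none past the threshold. Against the ends of chromosomes 12, 15, 16, 18 and 19 it turned positive with ends of 20 Mb (0.279) and in f13 (0.242). Co-segregation within ends lost the threshold with ends of 5 Mb at 0.04, 0.2, 1 and 4 Mb (0.556, 0.363, 0.448 and 0.386 percentage points), in f13 at all 5 distances (0.412, 0.304, 0.369, 0.240 and 0.162), in f14 at 0.04 and 0.2 Mb (0.771 and 0.600), and at 0.2 Mb without windows positive in over 15 libraries (0.455). Scaled to coverage it changed sign at 0.04, 0.2 and 1 Mb (-0.282, -0.222 and -0.000643) and lost the threshold at 4 and 8 Mb (0.0744 and 0.163). Pairs of ends against telomeric ends gave -0.127 in f13. The 1 called block of 10 Mb, which was no end, became 0 with isolated calls set to negative, in f13 and in f14. The gradient over 90 Mb, added after seeing the data, was -0.147 percentage points per 10 Mb in f13, -0.114 in f14 and -0.0967 without f14d4, none past the threshold. The number of profiles limits every pair count.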

Other observations

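Transcription factor genes of the Sox, Gata, Klf, Fox, Pax, Lhx, Nkx, Tbx, Irx and Pou families and of the sine oculis homeobox family were few in the ends, with 3 genes in 4 windows. Sox17, an endoderm regulator (chr1:4481009-4486494, minus strand), lay in a window positive in 4 libraries. Gata3, a regulator of T cells and trophoblast (chr2:9778705-9811661, minus strand), was touched in 6 libraries. Klf6, a Krüppel-like factor (chr13:5860735-5869639, plus strand), was touched in 6. These 3 genes lay close to the median of 5 libraries per window.

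Base composition and gene content moved little with detection in windows with under 10% of repeated words and at most 15 positive libraries (1869 windows). Pearson's r across windows was -0.0504 with GC content and 0.0103 with the number of protein-coding genes, as a description, since windows of an end share the same slices. Windows with no coding gene had a coverage of 7.15% ± 5.62 (SD, n = 74), those with 1 had 7.05% ± 5.31 and those with 2 or more had 7.35% ± 6.07.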
